A study of Mus musculus with 6 samples.

Results

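Krt7, Krt8, Krt18, Krt19 and Krt20 are the simple epithelial keratins measured here in Merkel cell-enriched and unselected cells of mouse epidermis. They were taken by exact gene symbol from a table of read counts, in which each symbol had 1 entry, so the set holds 5 of the 54532 genes counted and 5 of the 53 keratin genes found there. All 5 had enough counts to be tested.

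Keratins form the intermediate filaments of epithelial cells, and each filament is built from pairs of an acidic type I keratin and a basic type II keratin. Krt7 and Krt8 are type II, and Krt18, Krt19 and Krt20 are type I. Simple keratins are typical of single-layered epithelia such as gut and ducts, whereas stratified epidermis relies on Krt5 with Krt14 in its basal layer and Krt1 with Krt10 above it. Merkel cells, the touch-sensing neuroendocrine cells of the epidermis, keep Krt8, Krt18 and Krt20, and antibodies against these proteins are used to find them in tissue. Krt19 is grouped with the simple keratins of Merkel cells too, and is also a known keratin of the hair follicle bulge and outer root sheath.

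Smart-seq2, a method that amplifies full-length cDNA from little RNA, was applied to back-skin epidermis of male and female C57BL/6 mice aged 4 weeks, and each of the 6 libraries was made from 500 sorted events. For the NCAM-enriched group (3 libraries), cells were pulled down with beads against PSA-NCAM, a surface protein of Merkel cells, and then sorted as positive for PSA-NCAM and negative for the dead-cell stain DAPI. The bulk skin group (3 libraries) held DAPI-negative epidermal cells without that selection, which can include Merkel cells. No genotype or treatment separated the groups, and nothing in the labels says that libraries came from separate animals, so p-values measure the spread between these libraries only.

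Libraries held 1343190 to 4481830 counts, and 1 count equalled 0.216 to 0.773 CPM (library size-scaled counts, with TMM factors). Since reads without molecular identifiers can be PCR copies, limits based on counts cover counting error only. Of 13 Merkel cell marker genes, which included no keratin, 11 were tested and 4 were called higher in the NCAM-enriched group (Atoh1, Sox2, Pou4f3 and Chga), and their summed level was 311 to 1315 CPM there and 56.6 to 89.7 CPM in bulk skin. The most abundant was Pou4f3, with 183 ± 121 against 19.5 ± 1.82 CPM (mean ± SD, n = 3). NCAM-enriched library 3 had the lowest Merkel marker sum of its group. NCAM-enriched library 2 stood apart within its group by fibroblast markers, which summed to 33000 CPM there. These markers summed to 363 and 41.7 CPM in the other NCAM-enriched libraries and to 10360 to 18200 CPM in bulk skin. T cell markers were at 1.06 to 71.1 CPM in the NCAM-enriched group and 3446 to 3775 CPM in bulk skin, and 5 of 6 were called lower, as were 4 of 6 Langerhans and myeloid markers (44.8 to 222 against 7281 to 12500 CPM), led by Cd3g and Cd74. Skeletal muscle markers summed to 7.66 to 266 against 0 to 1.10 CPM, almost all of it Acta1, the 1 gene of that list tested and called. Of 6 fibroblast (led by Col1a2), 1 melanocyte (Kit), 4 glial (Mbp), 4 endothelial (Pecam1), 6 basal keratinocyte (Col17a1) and 8 sebaceous markers tested, edgeR called 0, whereas DESeq2 called 0, 0, 1, 2, 0 and 3, limma-voom 3, 0, 1, 2, 0 and 2, and an unadjusted p under 0.05 gave 1, 0, 1, 2, 0 and 4.

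The 3 type I genes and 2 type II genes lie in the 2 keratin clusters of the mouse genome (GRCm38). The type II genes Krt7 (chromosome 15, 101411043 to 101430313, plus strand, 9 exons) and Krt8 (chromosome 15, 101996698 to 102004482, minus strand, 9 exons) are on the same chromosome as Krt18 (chromosome 15, 102028180 to 102032027, plus strand, 7 exons), and 566 kb lie between Krt7 and Krt8. Krt18 is therefore a type I gene inside the type II cluster, placed head to head with Krt8 with 23.7 kb between their starts. Krt20 (chromosome 11, 99428403 to 99438150, 8 exons) and Krt19 (chromosome 11, 100140810 to 100148665, 6 exons) are both on the minus strand of chromosome 11. RefSeq promoter entries (GRCm38.p6) were matched for Krt7, Krt8, Krt18 and Krt20. The letters TATAA on the gene's own strand, within 50 bases either side of the RefSeq start, were found in Krt8, Krt18 and Krt20 and in 6.81% of 32851 promoters. Windows are shown for the 3 genes with a match, which are also the keratins by which Merkel cells are recognised. Krt7 was searched without a match, and no entry was matched for Krt19. The capitals mark the match, each line reads 5′ to 3′ on the gene's strand, and the match begins at position -1 in Krt8, -19 in Krt18 and -29 in Krt20. The RefSeq starts of Krt8 and Krt18 lie inside the gene bounds given above, which came from GENCODE.
Krt8 chr15:102004326-102004355 (minus): ggcctcttctttTATAAagggccttcgctg
Krt18 chr15:102028185-102028214 (plus): ctcccgcggcgaTATAAcaacaggtcgagg
Krt20 chr11:99438165-99438194 (minus): tctcttgaactcTATAAaaggtcatctcca
The 5 bases stand in different flanking sequence in each gene. CAGCTG, searched on both strands over 300 bases, was found in Krt8 only and in 16.3% of promoters, and CAGATG was found in none of these 4 and in 17.15% of promoters. Such matches are a description of the letters and say nothing on binding.

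A processed copy of Krt8 bears on how well its reads could be assigned. Krt8-ps (chromosome 7, 23357125 to 23358069, plus strand) matches the Krt8 transcript at 928 of 945 bases (98.2%). The coding stretch below is longer than a 50-base read and is shown because its 60 bases differ from the copy at a single base. The capital marks that base (C35T, counted from the 5′ end of the stretch). Every 50-base window inside the stretch covers it, so the windows shared in full, given after the sequences, do not lie wholly within it.
Krt8 chr15:102004017-102004076 (minus): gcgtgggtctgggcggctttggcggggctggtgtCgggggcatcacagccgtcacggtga
Krt8-ps chr7:23357288-23357347 (plus): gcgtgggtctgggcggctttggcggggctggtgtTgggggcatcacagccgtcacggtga
Of the 1909 windows of 50 bases in the Krt8 transcript, 567 (29.7%) also occur in Krt8-ps or in the lincRNA Gm36026, against 0.222% for Krt7, 0.720% for Krt18 and 0 for Krt19 and Krt20. Krt8-ps itself counted 16, 12 and 1 reads in the 3 NCAM-enriched libraries, and bulk skin counted 1, 0 and 0. Gm36026 overlaps Krt8 by 101 exonic bases and the antisense gene Gm671 overlaps Krt7 by 77, both on the opposite strand, so reads there cannot be told apart by strand. How reads with several matches were counted is not given in the sources used here, and the level of Krt8 is the least certain of the 5 for that reason.

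The keratins Krt7, Krt8, Krt18 and Krt20 were more abundant in every NCAM-enriched library than in any bulk skin library, and Krt19 was less abundant. Among all 13157 genes tested, 11.1% lay entirely higher and 19.3% entirely lower in this way. By edgeR's quasi-likelihood test with Benjamini-Hochberg adjustment over all tested genes, Krt7 and Krt20 were called higher (2 of 5, where 1.04% of all genes were called higher), and 0 of 5 were called lower (1.55% of all genes). At an unadjusted p under 0.05, 4 were higher and 1 lower. That threshold was passed by many genes, since Krt19, the last of the 5 by edgeR p, ranked 2047 among the genes tested. DESeq2 called 4 higher (7.64% of the genes it tested) and 1 lower (6.65%). Over all genes limma-voom called 351 higher and 849 lower, among them Krt7 and Krt20 higher and Krt19 lower.

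**Figure D1:**
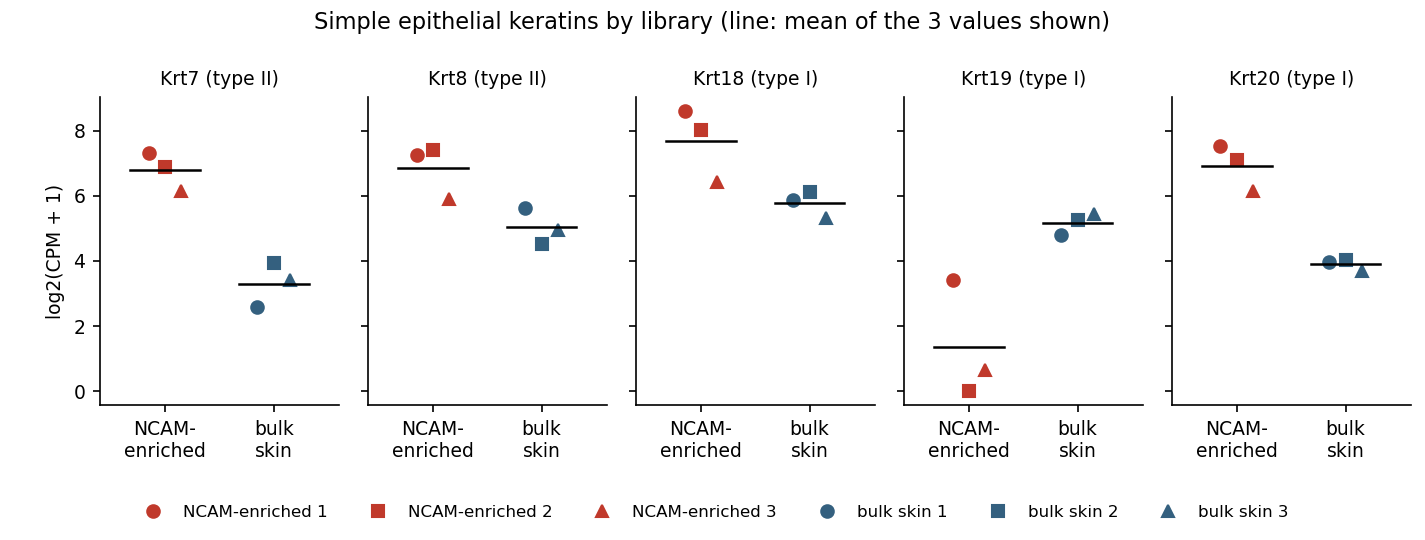
Level of each simple keratin as log2(CPM + 1), 1 point per library (red, NCAM-enriched; blue, bulk skin; shapes give the library number), with a line at the mean of the 3 values. Krt7, Krt8, Krt18 and Krt20 lie higher in every NCAM-enriched library than in any bulk skin library, and Krt19 lies lower, at 0 in NCAM-enriched library 2.

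Krt7, the type II keratin of ducts and glands, had 158, 118 and 70.4 CPM in the NCAM-enriched group, in the order of libraries 1 to 3 used throughout, against 4.97, 14.3 and 9.60 CPM in bulk skin. Even the lowest NCAM-enriched library was far higher than the highest bulk skin library. The mean was 116 ± 44.0 CPM against 9.61 ± 4.65 (SD, n = 3), an 11.9-fold difference and a log2 fold change of 3.58 ± 0.60 (SE, edgeR adjusted p = 0.0225). Krt7 was thus the simple keratin with the largest fitted fold change, although its SE overlaps that of Krt20.

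Krt8, the other type II member and the usual partner of Krt18, had 154, 171.5 and 58.45 CPM in the NCAM-enriched libraries and 49.1, 21.8 and 30.2 CPM in bulk skin. NCAM-enriched library 3 and bulk skin library 1 came close to each other, at 206 and 158 counts, without crossing. Means of 128 ± 60.8 and 33.7 ± 13.95 CPM gave a log2 fold change of 1.92 ± 0.55, which edgeR did not call (adjusted p = 0.0927, 0.0297 to 0.305 over the alternatives) and DESeq2 did (adjusted p = 0.0297). With the counts of Krt8-ps added, an alternative chosen after seeing the data, the log2 fold change was 1.98 (edgeR adjusted p = 0.0880).

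Krt18, the type I partner of Krt8, was the most abundant of the set per kilobase in both groups. It had 389.5, 260.4 and 85.7 CPM in the NCAM-enriched libraries and 58.1, 69.0 and 39.2 CPM in bulk skin. NCAM-enriched library 3 again lay nearest to bulk skin, and its 4.55-fold gap to library 1 was the widest ratio within a group among the 4 keratins detected in all libraries. The log2 fold change was 2.14 ± 0.56 (edgeR adjusted p = 0.0771, 0.00502 to 0.285 over the alternatives; DESeq2 adjusted p = 0.0173).

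Krt20, a type I keratin of gut epithelium and Merkel cells, had 185, 136 and 70.1 CPM in the NCAM-enriched libraries. In bulk skin it had 14.6, 15.35 and 12.1 CPM, the narrowest spread of the set (coefficient of variation 12.3%, against 22.4% to 48.4% for the other 4 keratins there). The groups lay 9.28-fold apart by the fitted value, with a log2 fold change of 3.21 ± 0.51 (edgeR adjusted p = 0.0196). The calls of Krt7 and Krt20 both needed all bulk skin libraries: without bulk skin library 1, 2 or 3 their edgeR adjusted p was 0.171, 0.123 and 0.162 for Krt7 and 0.171, 0.146 and 0.149 for Krt20. Among all genes, those fits called 0, 0 and 1 higher, against 137 with all libraries, so the loss was not particular to these keratins. Without NCAM-enriched library 1 Krt7 was at 0.0537. The fitted differences changed little in these fits, from 3.21 to 3.91 for Krt7 and from 3.05 to 3.22 for Krt20 without a bulk skin library.

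Krt19, the type I keratin that the bulge and outer root sheath also use, lay lower in the NCAM-enriched group. It had 18, 0 and 2 counts in the NCAM-enriched group, or 9.565, 0 and 0.5675 CPM, and 87, 171 and 156 counts in bulk skin, or 27.0, 37.0 and 42.8 CPM. The count of 0 in library 2 allows a level of up to 2.32 CPM (3 counts). Nearly all Krt19 reads of the NCAM-enriched group were therefore in library 1, and the coefficient of variation was 159% there against 22.4% in bulk skin. The log2 fold change of -3.38 ± 1.34 was not called by edgeR (adjusted p = 0.215, 0.0268 to 0.421 over the alternatives) and was by DESeq2 (adjusted p = 0.0402) and limma-voom (-4.70, adjusted p = 0.0268). Without NCAM-enriched library 1 it was -6.44 (edgeR adjusted p = 0.0455), so that library set the size of the value. Of 8 markers of the bulge and outer root sheath, edgeR called 2 lower (Lgr6 and Postn) and 0 higher. An unadjusted p under 0.05, DESeq2 and limma-voom each gave 3 lower and 0 higher. The median log2 fold change of these markers was -0.57, and 5 of the 8 overlapped between the groups. They summed to 611 to 1079 CPM against 1529 to 2229 CPM. Postn, the most abundant, had 81.8 ± 37.8 against 809 ± 165 CPM, and without it the sums overlapped, at 491.5 to 997.5 CPM against 876 to 1261 CPM. The part of these cells in the level of Krt19 was not tested. In pooled cells of this kind, fewer cells of a type and less RNA per cell cannot be told apart, for Krt19 as for the others.

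**Figure D2:**
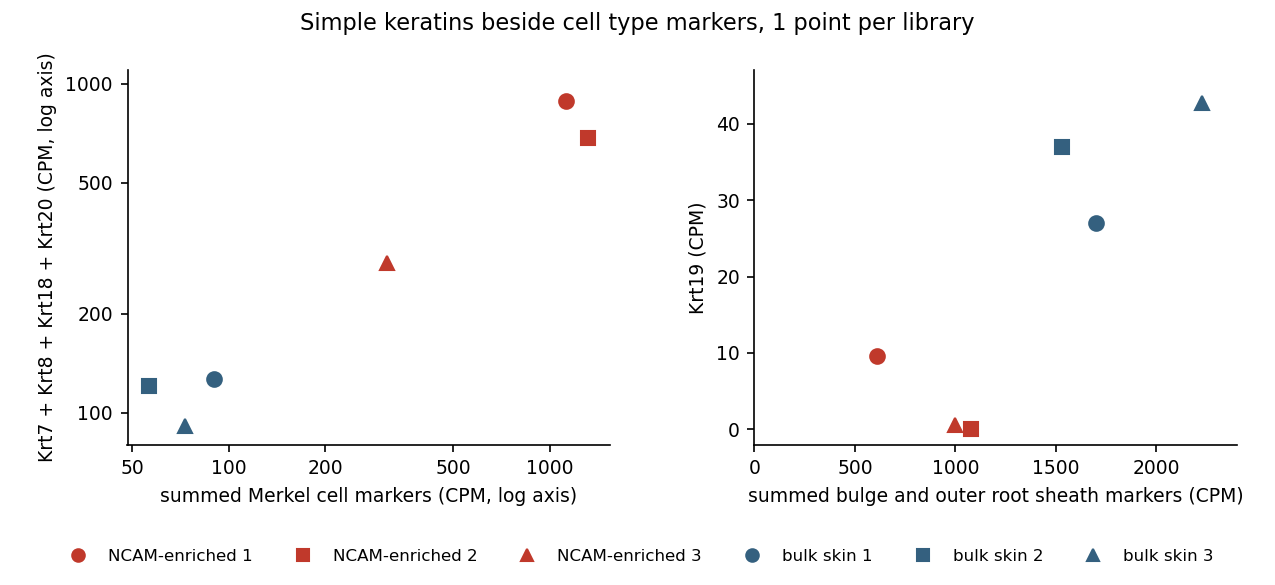
Left, the sum of Krt7, Krt8, Krt18 and Krt20 against the sum of 13 Merkel cell markers, both in CPM on log axes. Right, Krt19 against the sum of 8 bulge and outer root sheath markers, in CPM on linear axes. Each point is 1 library. NCAM-enriched library 3 lies between the other NCAM-enriched libraries and bulk skin on the left, and the NCAM-enriched libraries lie lower than bulk skin on both axes on the right, where the marker sums overlap without Postn.

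The 4 keratins that were higher in every NCAM-enriched library followed the Merkel marker sum only in part. They summed to 887, 686 and 285 CPM in the NCAM-enriched group against 127, 120.4 and 91.0 CPM in bulk skin, beside Merkel marker sums of 1122, 1315 and 311 CPM and 89.7, 56.6 and 73.2 CPM. Library 3 was thus the lowest of its group by both. Expressed per unit of Merkel marker sum, Krt8 was at 0.137, 0.130 and 0.188 in the NCAM-enriched libraries and at 0.547, 0.386 and 0.412 in bulk skin, without overlap. Krt18 was likewise lower per Merkel marker in the NCAM-enriched group, at 0.347, 0.198 and 0.276 against 0.647, 1.22 and 0.536. Krt7 (0.0899 to 0.226 against 0.0554 to 0.252) and Krt20 (0.103 to 0.225 against 0.163 to 0.271) overlapped between the groups on this scale. Because the Merkel marker sum itself was higher in every NCAM-enriched library, a gene that rose less than this sum is lower on this scale. How many of all genes were lower in this way was not counted. These quotients were chosen after the values were seen and carry no test.

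Levels of different keratins were compared as CPM per kilobase of the principal transcript. In the NCAM-enriched group the order was Krt18 (171 ± 106 CPM per kb), Krt20 (67.7 ± 30.03), Krt8 (65.3 ± 31.0), Krt7 (28.2 ± 10.8) and Krt19 (2.14 ± 3.41). Neighbours in that order overlapped in their ranges except Krt7 and Krt19. In bulk skin the order was Krt18 (38.6 ± 10.48), Krt19 (22.6 ± 5.06), Krt8 (17.2 ± 7.12), Krt20 (7.27 ± 0.893) and Krt7 (2.35 ± 1.14), and only Krt19 and Krt8 overlapped. By this length Krt19 took the second place in bulk skin and the last in the NCAM-enriched group, and Krt20 the fourth place and the second. Counting only the transcript windows of 50 bases found in no other gene, Krt8 came to 95.3 ± 45.3 CPM per kb in the NCAM-enriched group, above Krt20 (69.5 ± 30.8), and in bulk skin it came to 25.1 ± 10.4, above Krt19 (23.3 ± 5.22), so the places of Krt8 beside Krt20 and Krt19 rest on the length used.

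As shares of the 5 keratins together, per kilobase, Krt19 had 1.24, 0 and 0.251% in the NCAM-enriched libraries and 18.8, 24.9 and 34.6% in bulk skin. Krt20 had 19.6, 19.2 and 25.4% against 8.29, 8.47 and 7.98%, and Krt7 had 7.89, 7.84 and 11.99% against 1.33, 3.71 and 2.99%. The shares of Krt8 (20.2 ± 3.94 against 19.6 ± 7.78%) and Krt18 (48.7 ± 6.86 against 43.3 ± 8.16%) were close and overlapped. Within the set, the shares of Krt7, Krt19 and Krt20 thus did not overlap between the groups. Shares of the same total depend on each other, so the lower share of Krt19 in the NCAM-enriched group raises the others. These shares have no counterpart over all genes and carry no test.

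Because type I and type II keratins polymerise as pairs, their ratio was taken within each library, from counts per kb with 0.5 counts added, and compared by an exact two-sided permutation test. With 3 against 3 libraries the smallest p is 0.1, so no ratio could pass 0.05, and 7 ratios were compared. The Krt18 to Krt8 ratio was 3.45, 2.07 and 1.996 in the NCAM-enriched libraries and 1.61, 4.29 and 1.77 in bulk skin. These ranges overlapped, with mean log2 ratios of 1.28 ± 0.44 and 1.204 ± 0.779 (SD, n = 3; exact permutation p = 0.9, adjusted 0.9), and in every library Krt18 exceeded Krt8. Per window of 50 bases unique to each gene the ratio was 2.47, 1.48 and 1.43 against 1.153, 3.08 and 1.27, also above 1 in every library.

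Krt20 was set against each type II partner in the same way. Krt20 to Krt8 was 1.23, 0.806 and 1.22 in the NCAM-enriched libraries and 0.304, 0.716 and 0.409 in bulk skin. The groups did not overlap, and the mean log2 ratio was 1.25 higher in the NCAM-enriched group (exact permutation p = 0.1, adjusted p = 0.175). Which of these 2 genes is higher within a library rests on the length used. Counting only windows of 50 bases found in no other gene, Krt20 had 98.75, 72.4 and 37.3 CPM per kb in the NCAM-enriched libraries. By the same count Krt8 had 114, 128 and 43.6, above Krt20 in each of them. Krt20 to Krt7 was 2.49, 2.44 and 2.12 against 6.12, 2.28 and 2.66. It overlapped (difference in mean log2 ratio -0.51, exact permutation p = 0.3, adjusted p = 0.35) and was the most even of the ratios within the NCAM-enriched group, with an SD of 0.13 on the log2 scale.

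Krt18 to Krt7 and both Krt19 ratios lay lower in every NCAM-enriched library. Krt18 to Krt7 was 7.001, 6.26 and 3.47 there and 32.4, 13.7 and 11.5 in bulk skin, a difference of -1.69 in mean log2 ratio. Krt19 to Krt8 was 0.0794, 0.00279 and 0.0150 against 0.686, 2.10 and 1.76 (difference -6.51), and Krt19 to Krt7 was 0.161, 0.00846 and 0.0261 against 13.8, 6.70 and 11.5 (difference -8.27). None of these 3 ratios overlapped between the groups (exact permutation p = 0.1 and adjusted p = 0.175 for each), and the values for NCAM-enriched library 2 rest on a Krt19 count of 0 and on the counts added. Leaving out 1 library moved the Krt19 to Krt8 difference from -7.72 (without NCAM-enriched library 1) to -5.30 (without library 2) and the Krt19 to Krt7 difference from -9.42 to -7.29 without the same libraries. Summed over the set, type I exceeded type II in every library, at 3.19, 2.16 and 2.05 in the NCAM-enriched group and 2.48, 5.41 and 3.41 in bulk skin (difference in mean log2 ratio -0.57, exact permutation p = 0.2, adjusted p = 0.28).

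**Figure D3:**
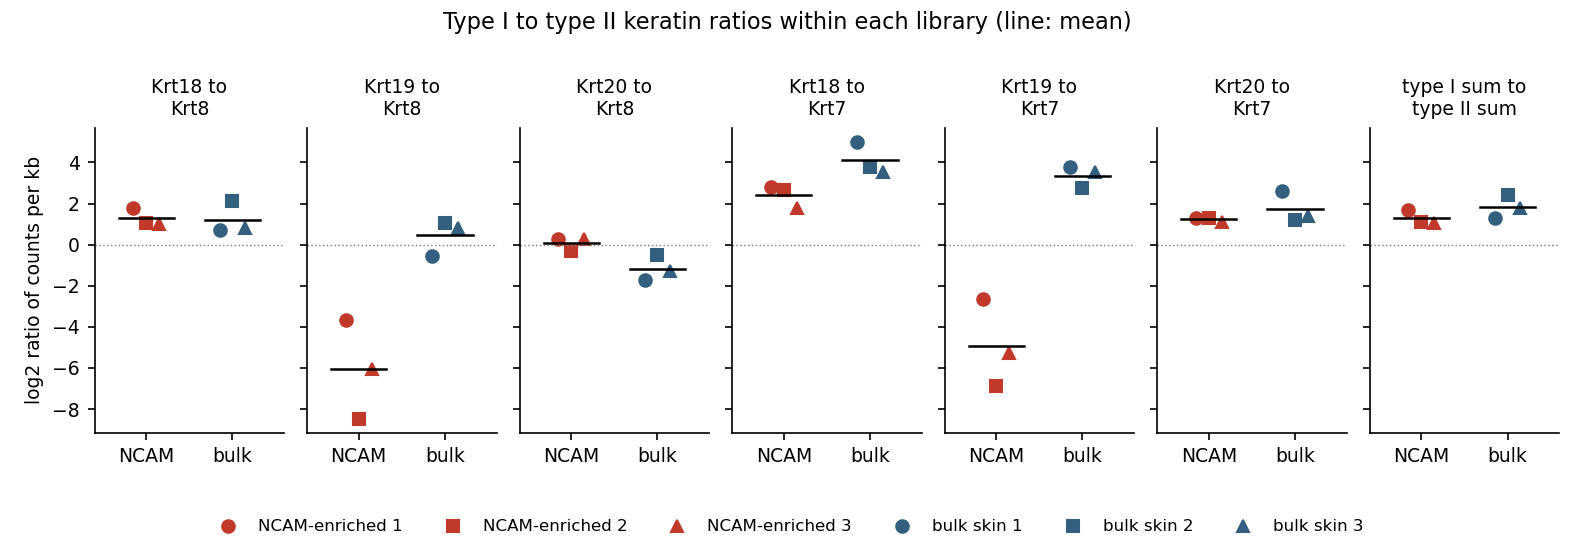
Log2 ratio of type I to type II keratin counts per kb within each library (red, NCAM-enriched; blue, bulk skin; line, mean of 3), with 0.5 counts added and a dotted line at equal levels. Krt18 to Krt8, Krt20 to Krt7 and the summed ratio overlap between the groups, Krt20 to Krt8 is higher in all NCAM-enriched libraries, and the other 3 ratios are lower.

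Simple keratins were a small part of all keratin signal per kilobase. Over the 53 keratin genes of the table they took 2.19, 2.99 and 0.392% in the NCAM-enriched group against 0.936, 1.105 and 1.10% in bulk skin. Library 3 lay below every bulk skin library by this share although its Krt7, Krt8, Krt18 and Krt20 lay above them in CPM. It also held the most keratin signal of all libraries, with 24360 CPM per kb of type I and 12210 of type II against 4911 to 7314 and 2243 to 2454 in bulk skin. Across all keratins type I exceeded type II in each library, by 1.65 to 2.11 in the NCAM-enriched group and 2.19 to 2.98 in bulk skin. The mean share of the simple keratins was 1.86 ± 1.33% against 1.05 ± 0.0954%, a difference of 0.811 percentage points smaller than the spread of the NCAM-enriched libraries.

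**Figure D4:**
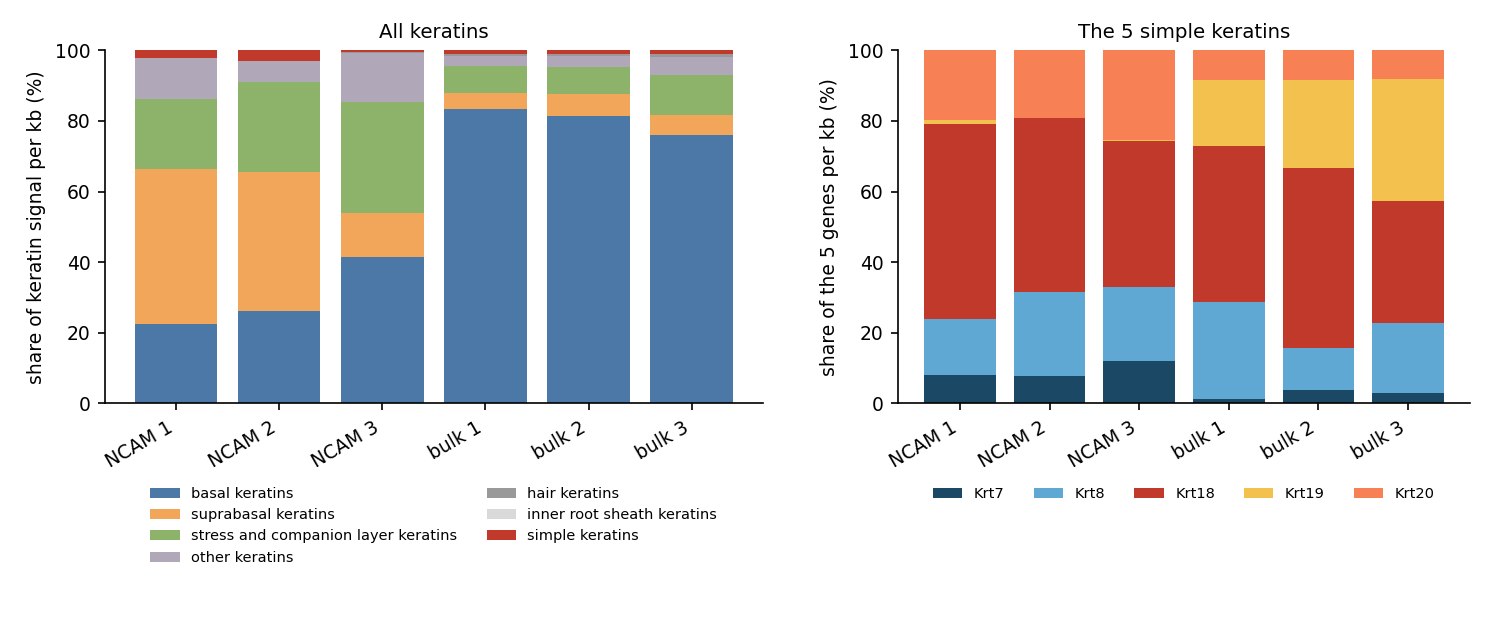
Left, share of keratin signal per kb (%) by class in each library. Right, share of each simple keratin among the 5 (%). Simple keratins take 0.392 to 2.99% of keratin signal, basal keratins take 76.2 to 83.2% in bulk skin and 22.3 to 41.6% in the NCAM-enriched group, and the Krt19 segment is largest in bulk skin.

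Higher counts in the NCAM-enriched group were not limited to the simple keratins. Of the 48 other keratins in the table, 19 were tested and 5 were called higher by edgeR (Krt10, Krt17, Krt23, Krt77 and Krt78) and 0 lower, with 1 lower at an unadjusted p under 0.05 and by DESeq2 and limma-voom (Krt83). All 3 basal keratins, which anchor the lower epidermis, were tested and 0 were called (edgeR; 0 also at an unadjusted p under 0.05, by DESeq2 and by limma-voom), with a median log2 fold change of 0.23 beside -0.07 over all genes. Krt15, Krt5 and Krt14 had 5799 ± 4633, 4548 ± 3861 and 3959 ± 3465 CPM in the NCAM-enriched group and 5441 ± 1396, 3879 ± 276 and 3178 ± 691 CPM in bulk skin. Of 5 suprabasal keratins tested, which mark differentiating cells, 3 were called higher (median 3.97): Krt10 had 6221 ± 3653 against 397 ± 70.8 CPM, Krt77 7463 ± 2686 against 306 ± 29.0, and Krt1, not called, 1321 ± 1142 against 247 ± 99.6. Markers of suprabasal keratinocytes other than keratins were higher beside them, with 6 of 8 called and sums of 2980 to 14390 against 634 to 961 CPM, led by Krtdap.

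Krt17, a keratin of stress and of the hair follicle, was the called member of the 3 stress and companion layer keratins tested (median -1.09), with 9851 ± 6921 against 1106 ± 126 CPM (edgeR adjusted p = 0.0437). Krt6a (12.5 ± 21.6 against 27.2 ± 5.15 CPM) and Krt16 (4.21 ± 5.70 against 13.8 ± 11.4) were not called. Krt23, a type I keratin outside these classes, had 154 ± 82.9 against 15.0 ± 2.51 CPM (log2 fold change 3.36 ± 0.57, edgeR adjusted p = 0.0237), a fold like those of Krt7 and Krt20. Krt79, a keratin of the sebaceous duct and the most abundant of the sebaceous markers, was not called (5416 ± 4704 against 575 ± 104 CPM, edgeR adjusted p = 0.0691). Those markers summed to 5770, 3237 and 10840 CPM in the NCAM-enriched libraries, of which Krt79 alone gave 4951, 961 and 10330. In bulk skin they summed to 1272, 1150 and 1414 CPM, with 546, 488 and 690 from Krt79. The high sums of NCAM-enriched libraries 1 and 3 were thus mostly Krt79, not a rise of the list as a whole. Inner root sheath and hair keratins had 3 tested genes and 0 calls (edgeR; at an unadjusted p under 0.05, 0 of 1 inner root sheath and 1 of 2 hair keratins). For hair keratins DESeq2 called 1 higher (Krt35) and 1 lower (Krt83), and limma-voom 1 lower, while neither called an inner root sheath keratin. Krt35 had 19.4 ± 30.9 CPM against 0 counts in bulk skin, which allow up to 0.931 CPM in a library. Its NCAM-enriched counts were 6, 0 and 194, nearly all in library 3, and lay in too few libraries for the edgeR test. The most abundant hair keratin was Krt32, at 25.1 ± 23.7 against 52.6 ± 10.8 CPM.

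**Figure D5:**
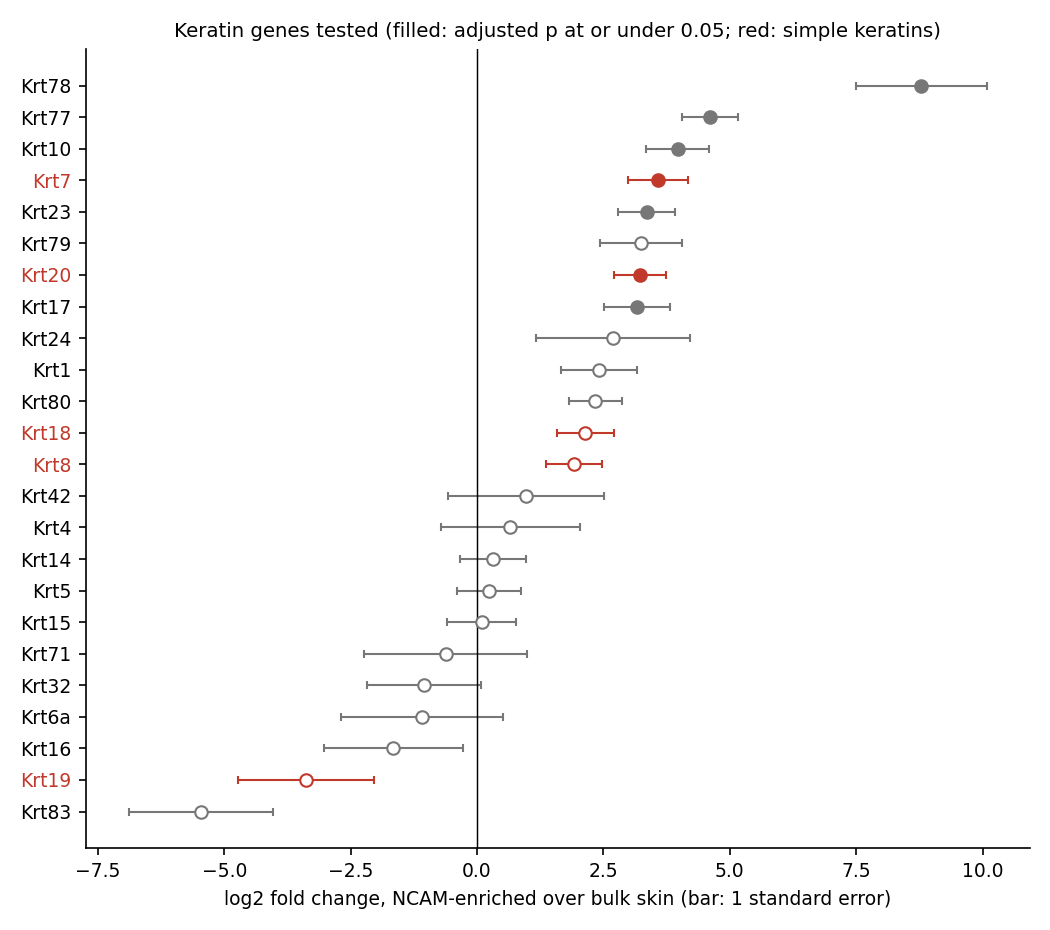
Log2 fold change of each of the 24 tested keratins, NCAM-enriched over bulk skin, with 1 SE. Red marks the simple keratins and filled points have an edgeR adjusted p of at most 0.05. Krt7 and Krt20 are filled, Krt18 and Krt8 lie to the right of 0 without a call, and Krt19 lies to the left.

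The genes that hold keratin filaments in place were described next. Of 14 keratin linkers, all tested, 4 were called higher and 0 lower (edgeR; 0 lower at an unadjusted p under 0.05, by DESeq2 and by limma-voom), with a median log2 fold change of 1.40. All 4 are plakins: Dsp, the desmosomal anchor of keratins, had 4029 ± 538 against 900.5 ± 212 CPM (log2 fold change 2.16 ± 0.45, adjusted p = 0.0440), and Ppl, Eppk1 and Evpl had 1.75, 3.17 and 3.31. Ppl and Evpl also belong to the cornified envelope of suprabasal cells. Dst and Plec, which tie keratins to hemidesmosomes, had 905 ± 386 against 723 ± 78.6 and 819 ± 219 against 612 ± 149 CPM and were not called. Among 7 tested intermediate filament genes that are not keratins, 0 were called (edgeR; 0 at an unadjusted p under 0.05, 1 by DESeq2, 0 by limma-voom): Lmna of the nuclear lamina had 1874 ± 702 against 1022 ± 131 CPM and Vim, of mesenchymal cells, 905 ± 761 against 1356 ± 343.

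Of 12 tested transcription factors of simple epithelia, 2 were called higher (Grhl3 and Ovol1, both also factors of epidermal differentiation) and 0 lower (edgeR; 0 lower at an unadjusted p under 0.05, by DESeq2 and by limma-voom), with a median log2 fold change of 1.09. Grhl3 had 115 ± 33.9 against 19.9 ± 5.19 CPM, and the abundant Klf4 and Gata3 had 1116 ± 412 against 600 ± 63.5 and 767 ± 258 against 348 ± 59.7 without a call. Trp63, the factor of stratified epithelia, was level at 334.5 ± 105 and 340.5 ± 128 CPM. Of 13 tested surface and junction genes of simple epithelia 0 were called (edgeR; 6 higher at an unadjusted p under 0.05, 3 higher by DESeq2, 2 by limma-voom). Spint2 and Cdh1 had 524 ± 322 against 296 ± 18.4 and 450 ± 173 against 264 ± 45.3 CPM.

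Likeness of pattern was measured as the SD, over the 6 libraries, of the difference in log2(CPM + 1) between a keratin and each of 9592 other tested genes with at least 20 CPM in one group. The libraries of a group share their cell source, so this is a description. The measure includes the difference between the groups, so genes with unlike fold changes are placed far apart by it. Krt20 and Krt7 were near each other (SD 0.51): Krt20 was the 9th nearest gene to Krt7, and Krt7 the 13th nearest to Krt20. The genes nearest to Krt20 were Isl1, a transcription factor of Merkel cells (SD 0.33), Lypd3 and Mapk8ip1, and those nearest to Krt7 were Rcor2 (SD 0.24), a partner of the demethylase LSD1, Fbxl19 and Ankrd35.

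Krt8 and Krt18 were also near each other (SD 0.56), with Krt18 in place 91 from Krt8 and Krt8 in place 52 from Krt18. Nearness was not limited to these pairs, since Krt18 and Krt8 were in places 65 (SD 0.68) and 126 (SD 0.79) from Krt20. From Krt18 and Krt8, Krt20 was in places 162 and 576, and Krt7 in places 1329 and 3048. Nearest to Krt8 were Wdr89 (SD 0.18), Tmem38a and Ndufa4l2, and nearest to Krt18 were Kif26a (SD 0.23), Osbpl1a and the pseudogene Rps19-ps6. Krt19 stood apart from all 4, none of which came nearer than place 8782. Its nearest genes, Rasl11b (SD 0.28), Reck and Chst11, each had 10 to 17 counts in NCAM-enriched library 1 and 0 in libraries 2 and 3, against 51 to 188 counts in bulk skin.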

How the data were processed

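The 6 Smart-seq2 libraries were grouped by their labels. The authors deposited raw read counts per gene with no normalization, as whole numbers. Per their methods, 50-base single-end reads were clipped, cleared of abundant sequences, aligned to GRCm38 with STAR and counted with featureCounts. Annotation release, strand setting and handling of multi-mapping reads were not given in the sources used here. Smart-seq2 does not keep the strand. No other sample columns were left unused (0).

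Groups were compared with edgeR 4.0.16 in R 4.3.3 (filterByExpr, TMM, quasi-likelihood F-test, non-robust), with Benjamini-Hochberg adjustment over 13157 genes and calls at an adjusted p of at most 0.05. SE was derived from the fitted fold change and the F statistic. The common biological coefficient of variation was 0.744. Ratios used 0.5 added counts and exact permutation in scipy 1.17.1, with Benjamini-Hochberg adjustment over 7 ratios. Positions, exons, principal transcript lengths and shared 50-base windows came from GENCODE M21, in which 54495 gene IDs were found and 37 were not; the principal transcript was chosen as length after seeing that the exon union of Krt7 (7049 bases) far exceeds its principal transcript (4094). Motif windows came from RefSeq. The members, gene lists and tests were chosen with earlier results of these data known. Named genes were the members, the 3 most abundant genes of each keratin and filament list with any called gene of at least 100 CPM, the most abundant of each marker list and the 3 genes most like each member; Ovol1, Lgr6, Atoh1, Sox2, Chga, Krt78 and overlapping or copied genes were named outside that rule, after values were seen. A gene that the rule selects is not reported here. The fit was tested on simulated counts. Alternatives were DESeq2 1.42.0, limma-voom (limma 3.58.1), other factors and filters, a robust fit, a replicate block, each library left out, other added counts and lengths, and Krt8-ps counts added to Krt8. Figures used matplotlib 3.10.9.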

Additional observations from a re-analysis of the deposited data

How the results depend on the processing

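Over 15 alternatives no fold change of the 5 keratins changed sign. Krt8 lay between 1.61 and 2.23, Krt18 between 1.61 and 2.49, Krt19 between -6.44 and -2.88, Krt20 between 2.85 and 3.45 and Krt7 between 3.21 and 3.91 on the log2 scale. DESeq2 also called Krt8 (1.91), Krt18 (2.13) and Krt19 (-3.42), limma-voom called Krt19 (-4.70), and the fit of all genes with at least 1 count called Krt18 (2.01) and Krt19 (-3.48). Calls over all genes were 137 higher and 204 lower by edgeR, 1257 and 1094 by DESeq2, 351 and 849 by limma-voom, and 769 and 741 without the count filter.

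Replicate numbers were not treated as pairs, since deviations of same-numbered libraries correlated at 0.0231, 0.000232 and -0.00776. In a fit blocked by replicate number, 50 and 92 genes were called, 132 of them shared with the unblocked fit, Krt20 kept its call (adjusted p = 0.0497) and Krt7 was at 3.59 (edgeR adjusted p = 0.0574).

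Leaving out 1 library gave 0 to 1099 genes higher and 13 to 733 lower, the fewest without a bulk skin library and the most without NCAM-enriched library 3 (higher and lower). In these fits Krt7 ranged from 3.21 to 3.91, Krt20 from 2.85 to 3.45, Krt8 from 1.61 to 2.23, Krt18 from 1.61 to 2.49 and Krt19 from -6.44 to -2.88. Without NCAM-enriched library 3, Krt8 and Krt18 were called (edgeR adjusted p = 0.0370 and 0.0219). The Krt18 to Krt8 difference in log2 ratio, 0.07 with all libraries, ranged from -0.18 to 0.52 and changed sign without NCAM-enriched library 1 (-0.18) or bulk skin library 1 (-0.18) or 3 (-0.12). Without bulk skin library 1 the Krt20 to Krt7 difference went from -0.51 to -0.07, and without bulk skin library 2 the summed ratio went from -0.57 to -0.27. With no count added, which drops NCAM-enriched library 2, the Krt19 to Krt8 and Krt19 to Krt7 differences were -5.48 and -7.49. The simple keratin share differed by 0.811 percentage points with all libraries, by 0.246 without NCAM-enriched library 2 and by 1.54 without library 3. The nearest genes by pattern are a ranking without a test. The depth of NCAM-enriched library 2, at 1343190 counts, limits what can be said of Krt19 there.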
